A study of Homo sapiens with 16 samples.

Results

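The comparison described here sets untreated MDA-MB-231 cells lacking Fn14 against untreated control cells of the same line, by the peaks of H3K27ac, an acetyl mark on histone H3 found at active promoters and enhancers. MDA-MB-231 is a triple-negative breast cancer line of mesenchymal character. Each genotype had 2 peak lists. The lists were trimmed to the 39544 peaks with the highest −log10 q value, the length of the shortest list, and merged where peaks overlapped by 1 bp or more, which gave 45566 regions. A region with a peak in both control lists and in neither Fn14 KO list was called control-only, and the reverse was called KO-only. Of the 45566 regions, 1467 were control-only (3.22%) and 1285 were KO-only (2.82%). In all 4 lists 32411 regions had a peak.

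The series holds 16 H3K27ac lists, 2 for each combination of MDA-MB-231 or Hs578T cells (both triple-negative), control or Fn14 KO, and no treatment or TWEAK. The KO cells had been edited by CRISPR-Cas9 with guides to TNFRSF12A, the gene of Fn14, delivered in the inducible TLCV2 vector. The primers used to check the edit are described as for genotyping clones, but whether the KO lists come from 1 clone is not given in the sources used here. All cells were grown in serum, starved for 8 h in OptiMEM and harvested after 48 h. TWEAK was given at 10 ng/ml and replenished at 24 h, whereas the untreated cells received none. The 12 lists outside the comparison were used only to ask where its regions had peaks elsewhere.

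Fn14 is a small receptor of the TNF receptor superfamily, and TWEAK (TNFSF12) is its ligand. Binding of TWEAK recruits TRAF adaptor proteins to the short tail of Fn14, which feeds into NF-κB signalling, including its non-canonical arm, and into MAP kinase cascades that end on AP-1, the family of FOS, JUN and related transcription factors. No TWEAK was added to the cells compared here, so the comparison concerns the baseline of the 2 genotypes. Acetylation of histone H3 at lysine 27 is laid down by the enzymes p300 and CBP and is read out here as enrichment of the mark over input DNA.

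The 5 DNA windows printed here come from 2 of the strongest control-only and 3 of the strongest KO-only regions, shown because these regions carry the clearest difference between the genotypes. Strength was the lower −log10 q value of the 2 lists that held the region. Each window is 200 bases of hg38, plus strand, in lower case, with any match to the AP-1 letters TGANTCA in capitals. A window was placed around the match nearest the middle of its region, or at the middle where the region had no match. The control-only windows lay upstream of GALR3, a galanin receptor, and in DMBT1, which encodes a secreted mucosal scavenger protein. Regions are named here by the nearest protein-coding start, and the protein-coding gene they lie in is given where it is another one. Overlapping non-coding genes are not given.
GALR3, chr22:37818022-37818221: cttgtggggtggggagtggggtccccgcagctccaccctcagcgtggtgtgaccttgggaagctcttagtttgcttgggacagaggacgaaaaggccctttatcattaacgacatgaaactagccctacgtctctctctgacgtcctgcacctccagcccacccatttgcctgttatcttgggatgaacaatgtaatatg
DMBT1, chr10:122614890-122615089: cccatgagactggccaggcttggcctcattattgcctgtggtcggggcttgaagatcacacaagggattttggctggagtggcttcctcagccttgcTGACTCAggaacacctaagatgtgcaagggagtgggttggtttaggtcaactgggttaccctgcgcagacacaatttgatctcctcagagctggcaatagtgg
The KO-only windows lay in introns of KIF6, a kinesin motor gene, of RBFOX1, a splicing factor gene, and of LSS, which encodes lanosterol synthase of cholesterol synthesis.
KIF6, chr6:39426109-39426308: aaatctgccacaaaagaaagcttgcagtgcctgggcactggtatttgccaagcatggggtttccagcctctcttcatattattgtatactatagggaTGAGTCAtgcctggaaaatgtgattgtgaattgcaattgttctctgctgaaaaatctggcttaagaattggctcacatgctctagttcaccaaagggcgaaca
RBFOX1, chr16:5906045-5906244: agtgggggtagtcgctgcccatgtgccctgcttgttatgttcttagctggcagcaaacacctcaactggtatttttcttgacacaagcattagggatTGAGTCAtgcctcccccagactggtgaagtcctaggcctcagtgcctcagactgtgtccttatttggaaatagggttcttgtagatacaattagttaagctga
LSS, chr21:46201455-46201654: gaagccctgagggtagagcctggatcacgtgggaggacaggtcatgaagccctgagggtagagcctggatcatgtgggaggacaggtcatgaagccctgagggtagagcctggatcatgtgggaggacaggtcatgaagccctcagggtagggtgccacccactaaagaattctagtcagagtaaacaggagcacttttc
The regions at DMBT1, KIF6 and RBFOX1 each held 1 AP-1 match, on which the window was placed, and those at GALR3 and LSS held none. The LSS window was repetitive, since 75.5% of its positions matched the base 45 bp further on.

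The 3 promoters printed next belong to genes whose start site lay in a control-only region, so that the loss of a peak fell on the promoter. FAM24B encodes a small secreted protein, ADRB1 the β1 adrenergic receptor, and UGT8 the enzyme that makes galactosylceramide of myelin. Sequences are from RefSeq (GRCh38.p14), cover 250 bases before to 50 after the start, run along the gene's strand and have the annotated start base in capitals.
FAM24B, chr10:122879592-122879891, minus strand: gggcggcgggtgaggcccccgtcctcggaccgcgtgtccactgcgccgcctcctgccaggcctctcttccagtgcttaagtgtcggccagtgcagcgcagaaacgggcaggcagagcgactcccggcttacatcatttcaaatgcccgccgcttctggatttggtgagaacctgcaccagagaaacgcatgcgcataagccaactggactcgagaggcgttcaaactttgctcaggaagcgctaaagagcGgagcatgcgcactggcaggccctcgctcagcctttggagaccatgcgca
ADRB1, chr10:114043616-114043915, plus strand: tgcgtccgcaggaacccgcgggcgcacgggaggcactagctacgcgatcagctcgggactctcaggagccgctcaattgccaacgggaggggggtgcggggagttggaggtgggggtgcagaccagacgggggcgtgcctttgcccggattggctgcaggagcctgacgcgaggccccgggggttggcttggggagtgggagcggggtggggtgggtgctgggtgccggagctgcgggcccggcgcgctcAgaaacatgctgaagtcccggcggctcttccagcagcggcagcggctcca
UGT8, chr4:114598152-114598451, plus strand: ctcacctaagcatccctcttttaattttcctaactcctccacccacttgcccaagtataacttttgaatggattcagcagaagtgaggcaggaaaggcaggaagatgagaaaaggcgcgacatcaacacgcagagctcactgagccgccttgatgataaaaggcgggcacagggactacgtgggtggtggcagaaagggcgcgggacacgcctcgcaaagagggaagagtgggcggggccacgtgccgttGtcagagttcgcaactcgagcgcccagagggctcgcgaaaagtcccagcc
GC content was 62.0% for FAM24B, 71.3% for ADRB1 and 56.3% for UGT8, against a median of 58.7% over the 35116 RefSeq promoters in the table. None of the 3 held TGANTCA or the ETS letters CCGGAAGT, which are in 7.71% and 4.14% of those promoters on either strand.

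Before the 2 genotypes were compared, the lists were checked. The deposited lists held 40603 and 44585 peaks in control replicates 1 and 2, and 46295 and 39544 in KO replicates 1 and 2. Reads were not used here, so the sequencing depth behind the lists is unknown. Median fold enrichment was 5.53 and 5.60 in the control lists and 5.04 and 5.10 in the KO lists. All 12 markers of mesenchymal triple-negative lines, among them VIM, CD44 and AXL, had a peak within 2 kb of a start site in all 4 lists, with a median fold of 12.3 to 16.3. Of 16 luminal markers 12 had one too, but ESR1, PGR and CDH1 had none in any of the 4 lists. Immune markers had a peak for 2 to 3 of 11 and endothelial markers for 2 to 3 of 9. The methods call the lists of a group biological replicates.

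TNFRSF12A itself (ENSG00000006327.14, chr16:3018445-3022383, plus strand, hg38) kept an H3K27ac peak in the KO cells, at a lower level. The region over its promoter, chr16:3019866-3024592, holds 4 of its 5 protein-coding transcript starts and also starts of its neighbours HCFC1R1, THOC6 and CLDN6, so the mark of these genes cannot be told apart there. It had a fold enrichment of 35.3 and 35.1 in the control lists and of 20.9 and 16.2 in the KO lists. The 2 groups did not overlap, but high folds were lower in KO lists in general. The 90th percentile over regions with a peak in all 4 lists was 14.8 and 12.6, against 17.4 and 18.4 in control lists. After quantile normalisation the difference was −0.48 ± 0.0936 on the log2 scale (SE, n = 2 per group, 1.40-fold lower, limma, Benjamini-Hochberg adjusted p = 0.00497). It was −0.75 with the lists scaled to a common median and −0.43 after each chromosome was centred (adjusted p = 0.0199). The same direction was seen in the other 3 pairs of groups, at −0.35 in MDA-MB-231 with TWEAK, −0.67 in untreated Hs578T and −0.53 in Hs578T with TWEAK. Over all 16 lists the 8 control values lay between 32.6 and 38.2 and the 8 KO values between 16.2 and 22.3. TNFRSF12A was not among the most changed genes, as rank 1369 of 32411 regions and 511 of 11625 genes counted from the largest decrease. A peak over an edited gene does not measure its protein, and the loss of Fn14 was checked by the authors on immunoblots. The gene of the ligand, TNFSF12, had folds of 3.85 and 3.61 in control and of 4.51 and 3.25 in KO cells, and these overlapped.

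The 2 genotypes differed in which regions had a peak by more than lists of mixed genotype did. Pairing 1 control with 1 KO list in each of the 4 possible ways gave 280 (0.614%), 292 (0.641%), 188 (0.413%) and 539 (1.18%) regions with a peak in both lists of the pair and in neither other list. These 4 counts are the background of the 1467 control-only (3.22%) and 1285 KO-only (2.82%) regions. With 2 lists against 2 an exact permutation test cannot go below p = 0.333, so no p is given. Regions found in 1 list alone numbered 1186 and 1487 for the control lists and 1531 and 1410 for the KO lists.

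**Figure D1:**
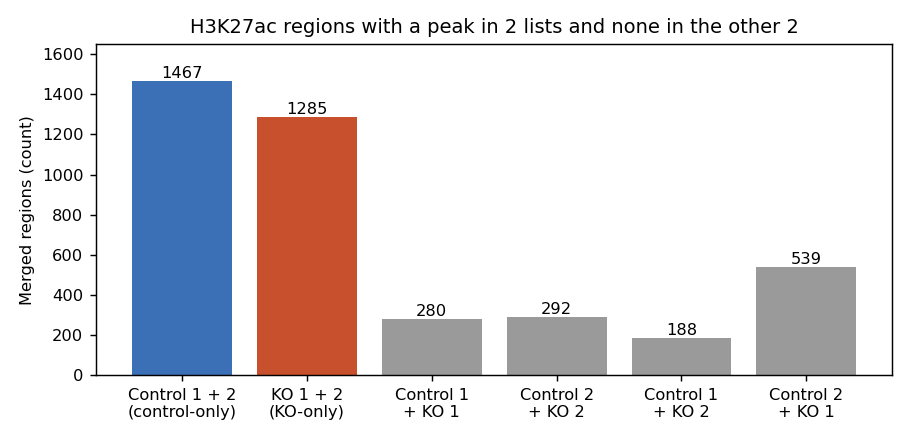
Number of merged H3K27ac regions (y axis) with a peak in the 2 named lists and in neither other list, for each pairing of the 4 untreated MDA-MB-231 lists (x axis). The 1467 control-only (blue) and 1285 KO-only (red) regions stand above the mixed pairings (grey), which run from 188 to 539.

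Many of these regions were weak peaks near the edge of detection. Median fold enrichment of the control-only regions was 3.24 and 3.53 in the control lists, and that of the KO-only regions was 3.51 and 3.27 in the KO lists, against 5.78 to 7.56 in regions shared by all 4 lists. Their median width was 856 and 871 bp, against 1978 bp for shared regions. A −log10 q of 5 or more in both lists was reached by 100 control-only (6.82%) and 54 KO-only regions (4.20%). In the untrimmed lists, 735 control-only regions (50.1%) had a peak in KO replicate 1, and 463 KO-only regions (36.0%) had a peak in a control list. A peak in no list of the other genotype, trimmed or not, was left for 732 control-only and 822 KO-only regions.

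The strongest control-only regions lay near genes of varied function. A 683-bp region 4.92 kb upstream of GALR3 (chr22:37817781-37818463) had a fold of 8.40 and 6.54 in the control lists. The strongest region of all lay in an intron of RASGEF1C, which encodes a guanine exchange factor of small GTPases (chr5:180152472-180152704), at 7.27 and 6.51. A region 64.7 kb from DRD5, the gene of a dopamine receptor (chr4:9716719-9716962), had 7.14 and 7.62, but it had no peak in any TWEAK list of this line. By contrast, the GALR3 and RASGEF1C regions had a peak in both control TWEAK lists and in neither KO TWEAK list. A region over an exon of UNC5C, a netrin receptor gene, 197 kb from the start of the BMP receptor gene BMPR1B (chr4:95301019-95302046), had 5.71 and 6.72.

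DMBT1 held 4 control-only regions, of which 2 were among the 12 strongest. Their folds were 6.51 and 6.88 at chr10:122613171-122615420 and 5.95 and 7.51 at chr10:122609167-122611013. The DMBT1 start itself had a peak in all 4 lists, with folds of 14.5 and 18.3 in control and 6.29 and 5.84 in KO cells. Acetylation over this gene was therefore lower in KO cells at its start and absent from the trimmed KO lists further into it.

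The other strongest control-only regions were at start sites or in exons for several genes. MANBA, the lysosomal β-mannosidase, had its start in a region with folds of 5.63 and 5.70 in control cells, but it had a peak in both KO TWEAK lists. FAM24B, whose promoter is printed above, had 5.55 and 6.24. This region (chr10:122878725-122880350) had a peak in both control TWEAK lists, in no KO TWEAK list and in all 8 Hs578T lists of both genotypes. CDC16, a subunit of the anaphase-promoting complex, had 6.98 and 5.69 in an exon, and USP11, a deubiquitinase on chromosome X, had 5.84 and 6.38. A region 204 kb from SPRY1, an inhibitor of receptor tyrosine kinase signalling, had 5.10 and 5.50, and a region 96.1 kb from the homeobox gene ESX1 had 5.46 and 6.28. Further start sites in control-only regions were those of ADRB1 (5.35 and 5.92), UGT8 (5.13 and 5.76), SPATA13, a guanine exchange factor (5.66 and 6.47), DMC1, the meiotic recombinase (6.19 and 5.27), LIPA, the lysosomal acid lipase (4.97 and 5.75) and OLFML3, a secreted matrix protein (5.04 and 5.53).

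The strongest KO-only regions lay mainly in introns and between genes, and 4 of them came in pairs at KIF6 and PIEZO2. KIF6 had folds of 10.6 and 9.09 in the KO lists at chr6:39424976-39427240, and of 8.11 and 6.35 at chr6:39415972-39417524. The first of these had a peak in both KO TWEAK lists, in no MDA-MB-231 control list and in 7 of the 8 Hs578T lists. PIEZO2, a mechanically gated cation channel gene on chromosome 18, had 9.02 and 7.47 in 1 region and 6.74 and 6.32 in another. RBFOX1 had 9.34 and 7.87 at chr16:5904687-5907374, and LSS had 8.78 and 7.52 at chr21:46200347-46202762. MYO10, an unconventional myosin of filopodia, had 6.06 and 5.77, and an intron of HPSE2, a heparanase-like gene, 94.2 kb from the start of HPS1, had 5.49 and 5.83. An intron of RBM20, a splicing regulator of cardiac muscle, 106 kb from the start of PDCD4, had 6.81 and 5.65. A region 457 kb from PLK2, a polo-like kinase, had 5.14 and 6.40, a region 96.9 kb from SETD3, a histidine methyltransferase of actin, 6.10 and 5.96, and a region 114 kb from SPANXA1, a cancer-testis gene, 6.51 and 5.82. The PLK2, PDCD4 and SPANXA1 regions also had a peak in both control TWEAK lists. SPANX genes are near-identical copies, so reads there could be placed at more than 1 of them. Start sites were rarer, and the strongest were ZNF175, a zinc finger factor (5.15 and 5.22), CELF4, an RNA-binding protein (5.44 and 4.74), LY6E (5.62 and 4.75) and TPSG1, a tryptase (4.87 and 4.59, with no peak in any TWEAK list of this line), followed by SAMD9L, an interferon-induced gene (4.78 and 4.26).

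Some genes had several member regions near them. Control-only regions numbered 5 each at PALLD, an actin-associated protein gene, and TENM3, a teneurin gene, and 4 each at DMBT1 and LRRC4C. FGGY, a carbohydrate kinase gene, and MYC were each the nearest gene to 6 KO-only regions, PTPRN2 and ICE1 to 5 each and RBFOX1 to 4. Of the 6 regions at MYC, the nearest lay 18.3 kb from its start (chr8:127756053-127756913) with folds of 3.66 and 2.98. The furthest was 944 kb away. Another member of the same kind within 50 kb was found for 218 control-only (14.9%) and 165 KO-only regions (12.8%).

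Both kinds of region, and regions of the mixed pairings, lay away from start sites more often than shared regions did, and KO-only regions most. Within 2 kb of a protein-coding start lay 219 control-only regions (14.9%, exact binomial 95% interval 13.1 to 16.9) and 111 KO-only regions (8.64%, 7.16 to 10.3), against 35.2% of regions in all 4 lists and 28.4% of all regions. Of the mixed-pairing regions whose sequence was read, 154 of 1280 lay there, a share between those of control-only and KO-only regions. Between genes lay 39.1% and 49.0%, against 31.3% of shared regions. Introns held 37.4% and 36.6%, and exons 8.59% and 5.76%. The median distance to the nearest start was 20.1 kb for control-only and 37.5 kb for KO-only regions, against 11.8 kb for shared regions.

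AP-1 letters were more frequent in KO-only than in control-only regions. Away from start sites, TGANTCA (its own reverse complement) was found in the central 500 bp of 38.9% of control-only regions (36.2 to 41.6) and of 52.7% of KO-only regions (49.8 to 55.6). The share was 47.6% in regions of the mixed pairings (44.7 to 50.6), 45.2% in shared regions and 44.9% in all regions, so that control-only regions were below and KO-only regions above these. The interval of the mixed pairings overlapped that of the KO-only regions. NF-κB letters GGANTTTCC on either strand were in 2.41% and 3.25%, against 2.75% of all regions, and the TEAD letters GGAATG in 33.5% and 33.1%, against 32.2%. A match of letters is a description of the sequence and not of a bound factor.

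**Figure D2:**
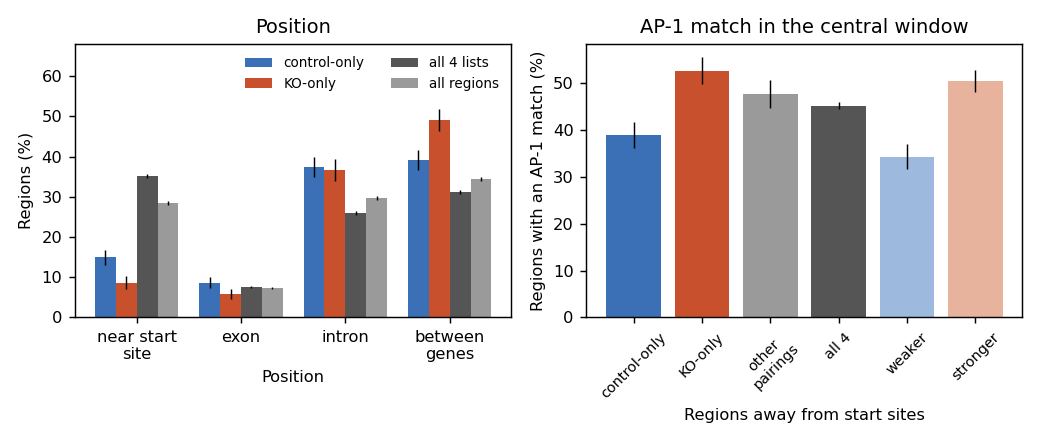
Left, percent of regions (y axis) near a start site, in an exon, in an intron or between genes. Right, percent of regions away from start sites with TGANTCA in the central 500 bp. Lines are exact binomial 95% intervals, which treat regions as independent. KO-only regions had the lowest share near start sites (8.64%) and the highest AP-1 share (52.7%).

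A control-only region within 100 kb, nearest to its start, was held by 1106 of 19663 protein-coding genes (5.62%), and a KO-only region by 842 (4.28%). The gene lists of the pathway were read against these shares. Of 33 TNF superfamily receptors and ligands only TNFRSF11A, the receptor RANK, had a control-only region, and no listed member of the family had a KO-only region. Of 35 NF-κB genes NFKBIA, the inhibitor IκBα, had a control-only region (8.96 kb away, in both control TWEAK lists and no KO TWEAK list). TRAF3, an inhibitor of the non-canonical arm, and MAP3K14, its kinase NIK, had KO-only regions. The TRAF3 region also had a peak in both control TWEAK lists of this line and in every Hs578T list. The MAP3K14 region had no peak in any TWEAK list of this line. Of 24 AP-1 and small MAF genes JDP2 and FOSL2 had control-only regions and MAF a KO-only region. Of 33 cytokines CSF1 and IL1B had the former and TSLP the latter.

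NAD metabolism, whose enzymes make and consume the cofactor NAD, had control-only regions at 6 of 20 genes and no KO-only region. The 6 were NMNAT2, QPRT, NAMPT, SIRT3, NADSYN1 and NT5E, of which NAMPT makes NMN from nicotinamide, NMNAT2 makes NAD from NMN, QPRT and NADSYN1 serve the synthesis of NAD from tryptophan and nicotinic acid, SIRT3 is a mitochondrial deacetylase that consumes NAD and NT5E is the ectonucleotidase CD73. All were weak, with a lower −log10 q of 2.36 for NT5E to 3.95 for NMNAT2. The NAMPT region (chr7:106317820-106318775) lay 31.9 kb from the start of the gene and had a peak in both control TWEAK lists and neither KO TWEAK list. The NADSYN1 region had the same pattern, whereas the NMNAT2, QPRT, SIRT3 and NT5E regions did not. At the NAMPT start itself the folds were 27 in both control lists and 19.0 and 18.7 in the KO lists. That difference was −0.07 after quantile normalisation (limma, adjusted p = 0.678) and −0.33 with median centring (adjusted p = 0.066). In the TWEAK lists of this line the quantile-normalised difference was 0.38. The deposited folds there were lower in KO lists (16.3 and 18.6) than in control lists (24.0 and 20.1), so the sign rests on the scaling.

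In the other lists members were found in both directions. Developmental transcription factors had 13 and 14 of 77 genes with control-only and KO-only regions (16.9% and 18.2%). Genes of epithelial-mesenchymal transition had 7 and 4 of 30, matrix and protease genes 7 and 4 of 43, growth factor genes 7 and 4 of 43, TGF-β and BMP genes 6 and 4 of 38, WNT genes 4 and 4 of 38, integrins and adhesion genes 3 and 2 of 29, and interferon and STAT genes 2 and 3 of 38. Of 20 YAP and TEAD genes NF2, the tumour suppressor merlin, and FRMD6 had control-only regions, while YAP1, WWTR1 and again FRMD6 had KO-only regions. Of 25 cell cycle genes 1 had a control-only region and MYC a KO-only region. Long genes with wide surroundings have more room for a region, and this was not adjusted for.

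Where all 4 lists had a peak, the height of the peaks was compared. By limma on quantile-normalised log2 fold enrichment, at a Benjamini-Hochberg adjusted p of 0.05, 2287 of 32411 regions (7.06%) were weaker and 2356 (7.27%) were stronger in KO cells. The median difference was −0.50 (range −1.41 to −0.28) among the weaker and 0.52 (0.29 to 1.68) among the stronger. The balance rests on the scaling, because high folds were lower in KO lists (90th percentile 14.8 and 12.6, against 17.4 and 18.4). With the lists scaled to a common median, 4055 were weaker and 2721 stronger, that is 40.2% of the called regions were stronger, against 50.7% in the quantile-normalised fit. A start site lay in or near 45.2% of the weaker and 17.6% of the stronger regions, against 35.2% of those tested. Leaving out each list in turn kept 480 weaker and 636 stronger regions in every fit, and the counts fell to 767 weaker and 1018 stronger without control replicate 1 and to 1009 and 1218 without control replicate 2.

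The largest decrease was at MAMLD1, which encodes a Notch-pathway coactivator on chromosome X. Its start-site region (chrX:150361517-150368342) had folds of 28.1 and 29.3 in control and of 9.33 and 7.56 in KO cells, a difference of −1.41 ± 0.0987 (SE, limma, adjusted p = 2.05e-05). CD99L2, a cell adhesion gene from the same end of chromosome X, went from 14.9 and 14.7 to 5.22 and 5.69 (−1.18). On chromosome 10, HTRA1, a secreted serine protease, went from 19.7 and 20.6 to 7.36 and 6.56 (−1.23), an intron of GRK5, a G-protein-coupled receptor kinase, 75.9 kb from the start of RGS10, from 8.89 and 10.5 to 4.01 and 3.74 (−1.16), and DMBT1, given above, by −1.16. The remaining 3 of the 8 largest decreases were nearest to ENSG00000188897 (13.5 and 15.2 against 5.13 and 5.06, −1.25), the olfactory receptor gene OR10J1 (7.30 and 8.05 against 3.06 and 3.09, −1.21) and MARCHF10, a ubiquitin ligase gene (8.79 and 8.89 against 3.99 and 3.11, −1.19). The ENSG00000188897 region also overlapped RMI2. In each of these regions both KO values were below both control values, which follows from choosing the largest decreases in the same lists.

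The largest increase was at KCNMA1, the BK potassium channel. An intronic region 5.51 kb from its start (chr10:77628197-77631937) had folds of 4.20 and 4.58 in control and of 13.1 and 11.1 in KO cells, a difference of 1.68 ± 0.124 (SE, limma, adjusted p = 2.13e-05). ADAMTSL3, a matrix glycoprotein, went from 4.15 and 3.70 to 9.97 and 9.09 (1.46), CDH13, an atypical cadherin, from 3.28 and 4.04 to 8.80 and 8.43 (1.40), and an intron of SYN3, a synapsin gene 115 kb from the start of FBXO7, from 3.34 and 4.35 to 8.97 and 9.04 (1.41). A region 28.1 kb from the cytokine gene IL17A went from 3.26 and 3.45 to 10.4 and 7.44 (1.54). The others were at AIG1 (3.58 and 3.16 against 8.90 and 7.16, 1.38), 439 kb from GADD45G (2.83 and 3.74 against 10.0 and 5.93, 1.38) and 169 kb from the forkhead gene FOXQ1 (2.98 and 4.01 against 7.41 and 8.22, 1.32). All 16 regions passed the test in each of the 4 fits that left out a list and under median and chromosome centring. In the TWEAK lists of this line, which played no part in the choice, the 8 regions with the largest decrease had differences of −1.41 (MAMLD1) to −0.16 (DMBT1), with −0.98 at RGS10, −0.64 at HTRA1 and −0.23 at CD99L2. Of the 8 with the largest increase, ADAMTSL3 had 1.64, IL17A 1.54, KCNMA1 1.38, AIG1 1.04, GADD45G 0.81 and FBXO7 0.44, whereas CDH13 (−0.01) and FOXQ1 (−0.04) had next to none.

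**Figure D3:**
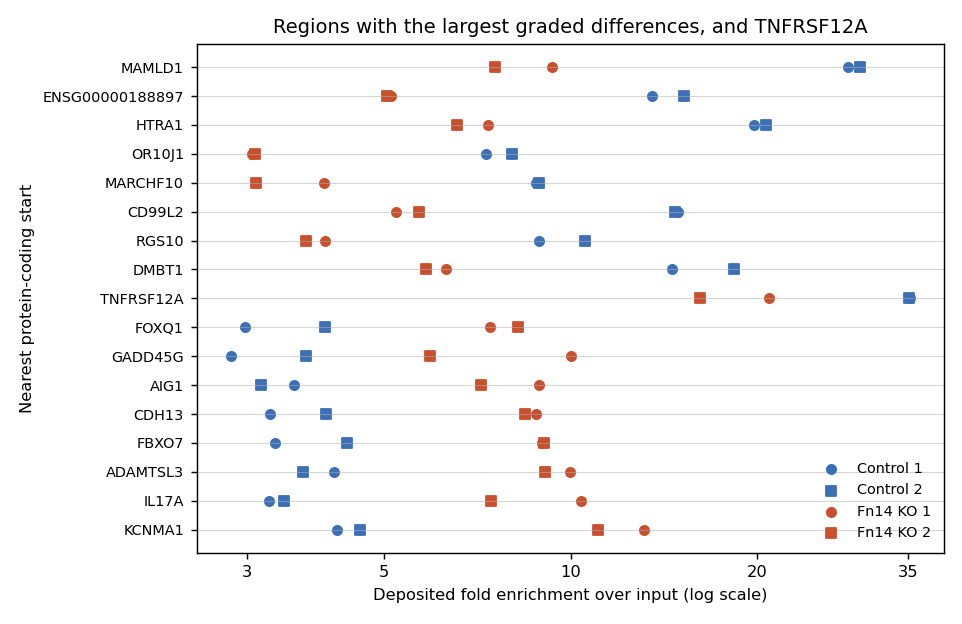
Deposited fold enrichment (x axis, log scale) in each of the 4 untreated MDA-MB-231 lists for the 8 regions with the largest decrease, TNFRSF12A and the 8 with the largest increase (y axis, named by the nearest protein-coding start). MAMLD1 spans from 7.56 to 29.3. The blue control and red KO points do not overlap in any row, but all rows except TNFRSF12A were chosen for large differences in these lists.

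At start sites, decreases outnumbered increases. Of 11625 genes with a tested region at a start site, 1053 (9.06%) had it weaker and 406 (3.49%) stronger in KO cells. After MAMLD1 and DMBT1 the largest decreases were MEX3D, an RNA-binding protein (−1.14), PITPNC1, a phosphatidylinositol transfer protein (−1.10), CHRNA1, a subunit of the muscle acetylcholine receptor (−1.02), RALGDS, an exchange factor of the RAS pathway (−1.01), ATOH8, a helix-loop-helix factor (−1.0), and HDAC5, a histone deacetylase (−0.99). Large increases were at TNXB, a tenascin (1.12), FXYD3, a regulator of the sodium pump (1.07), CDON, a Hedgehog co-receptor (1.01), SP140L (0.90), JPH2 (0.88), HSPA5, the chaperone BiP of the endoplasmic reticulum (0.86), and SPNS2, a sphingosine-1-phosphate transporter (0.86). These genes were chosen after their values were seen.

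Of all genes 9.06% were weaker and 3.49% stronger at start sites, and AP-1 and NF-κB genes had larger shares of both calls. So had YAP and TEAD genes (16.7% and 11.1% of 18) and luminal markers (18.2% and 18.2% of 11), so this was not particular to the pathway. Of 20 AP-1 and small MAF genes tested, 5 (25%) were weaker, namely FOS, FOSB, JUNB, JUND and MAFK, and 2 (10.0%) were stronger, namely BACH1 (0.45) and NFE2L3 (0.53). FOS had folds of 24.5 and 25.9 in control and of 12.8 and 9.43 in KO cells, a difference of −0.81. Of 34 NF-κB genes, 6 (17.6%) were weaker, among them the subunits REL (−0.71) and NFKB1 (−0.64) and the coactivator BCL3 (−0.53), with NFKB2, IKBKG and TRADD. The 3 stronger (8.82%) were TBK1, TRAF1 and TNIP1. NFKB1 and IKBKG lie in 10-Mb windows with a lowered median and TNIP1 in one with a raised median, as given below. Chromosome centring used the median of the whole chromosome, not of these windows. With each chromosome centred, REL, NFKB1 and BCL3 were called again and none of the 3 stronger genes was, nor did those 3 pass with median centring (0.14, 0.16 and 0.03, limma, adjusted p = 0.370, 0.336 and 0.888). Of the AP-1 genes, JUNB and JUND lost their call with chromosomes centred and BACH1 with median centring. The median over each gene list was close to that of all genes (−0.07 for AP-1 and −0.05 for NF-κB, against −0.06). With TWEAK, the 5 weaker AP-1 genes of this line had differences of 0.26 (FOS), −0.05 (FOSB), −0.24 (JUNB), 0.10 (JUND) and −0.06 (MAFK). BACH1 (−0.58) and NFE2L3 (−0.62) had the opposite sign. The weaker NF-κB genes had −0.19 (REL), −0.47 (NFKB1), 0.02 (BCL3), −0.59 (NFKB2), −0.48 (IKBKG) and −0.48 (TRADD). The 3 stronger had −0.11 (TBK1), −0.17 (TRAF1) and −0.10 (TNIP1).

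The calls in the other lists are given next. Of 13 TNF superfamily genes TNFRSF12A was weaker and TNFRSF6B, a decoy receptor (0.36), stronger, which lost its call with median centring. TGF-β and BMP genes had 3 of 33 weaker, TGFB3 (−0.79), SMAD6 and BMPR1A. Of 18 YAP and TEAD genes TEAD2 (−0.79), LATS2 and AJUBA were weaker and FRMD6 and CCN2, a secreted YAP target (0.70), stronger. FN1, the fibronectin gene, was the 1 EMT gene of 15 called, as weaker, and IL11 the 1 cytokine of 16. Of 30 matrix genes COL1A1 and COL12A1 were weaker and COL5A2 and SERPINB2 stronger. Growth factor genes had 3 of 29 stronger, FGF1 (0.54), EPHB2 and IGFBP6, and none weaker. Developmental factors had 4 of 43 weaker, PAX8 (−0.66), HOXB9, GATA6 and ETS2. NAD metabolism had PARP1 weaker (−0.56) and NUDT12 stronger among 13. NUDT12 had folds of 18.9 and 19.1 in control and of 19.9 and 16.1 in KO cells. It lost its call with chromosomes centred and with median centring (limma, adjusted p = 0.414 and 0.535). Interferon genes had IRF9 and ISG15 weaker and SOCS1 and IRF1 stronger among 31, and WNT genes had TCF7L2 weaker and TCF7 stronger among 24. None of 18 integrin and adhesion genes and none of the 12 mesenchymal markers was called. Among the 11 luminal markers tested KRT19 (−0.71) and KRT8 (−0.54) were weaker, KRT18 (0.49) and TFF1 (0.73) stronger. Deposited folds of control and KO lists overlapped at each listed gene or marker called stronger except NFE2L3, SERPINB2, FGF1, CCN2, TCF7 and TFF1. They overlapped at none called weaker. Apart from the luminal markers, 31 listed genes were weaker and 17 stronger. With each chromosome centred 21 and 8 of them were called again, and with median centring 31 and 8. In each fit that left out 1 list 8 and 4 passed, namely REL, NFKB1, BCL3, TNFRSF12A, FOS, TGFB3, TEAD2 and PAX8, and NFE2L3, FGF1, CCN2 and IRF1. Of these, IRF1 lost its call under both centrings (adjusted p = 0.091 by chromosome and 0.074 by median, limma) and FGF1 with chromosomes centred (adjusted p = 0.057). Among the markers KRT19, KRT8 and TFF1 passed each of these fits, and KRT18 did not.

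AP-1 letters followed the graded difference in the same direction as the presence of peaks. Away from start sites TGANTCA was in 34.3% of weaker regions (31.7 to 37.0) and in 50.5% of stronger regions (48.2 to 52.7), against 45.2% of shared regions.

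Part of the difference ran along whole chromosomes. These chromosomes were picked after their values were seen. The median difference over tested regions was 0.16 on chromosome 5 and −0.10 to −0.11 on chromosomes 4, 10, 21, 22 and X, whereas the other 17 lay between −0.06 and 0.03. With TWEAK the same line had 0.14 on chromosome 5 and −0.13 on chromosome 4, while untreated Hs578T had no chromosome beyond −0.04 or 0.04. Of the regions on chromosome X 5.77% were control-only, of those on chromosome 4 5.53%, and on chromosome 5 1.19%, where 5.28% were KO-only. In windows of 10 Mb, the end of chromosome X from 150 Mb, which holds MAMLD1, CD99L2 and IKBKG, had a median of −0.52, with 52 of 82 tested regions weaker and 18 of 135 regions control-only. Chromosome 4 from 100 Mb, which holds MANBA and NFKB1, had −0.34 and chromosome 10 from 120 Mb, which holds DMBT1, HTRA1 and FAM24B, had −0.24. Chromosome 5 from 10 Mb, which holds MYO10, had 0.32, with 37.5% of tested regions stronger and 13 of 124 regions KO-only. Chromosome 5 from 150 Mb, which holds TNIP1, had 0.22. The 11 windows beyond 0.2 in either direction had the same sign in the TWEAK lists of this line, and none passed 0.2 in untreated Hs578T. Chromosome 8 from 120 Mb, which holds MYC, had 19 KO-only and no control-only regions among 249.

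The counts were repeated with each chromosome centred and with chromosomes left out. Centring took the median of the whole chromosome, −0.11 on X. It therefore did not remove the shift of single windows, such as −0.52 on X from 150 Mb. With each chromosome centred, 1617 of the weaker and 1630 of the stronger regions were called again. Without chromosomes 4, 5, 10, 21, 22 and X, 1077 control-only (3.0%) and 1024 KO-only regions (2.86%) remained of 35853. The part of the chromosome-wide or window shifts in the differences of any 1 gene was not tested.

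**Figure D4:**
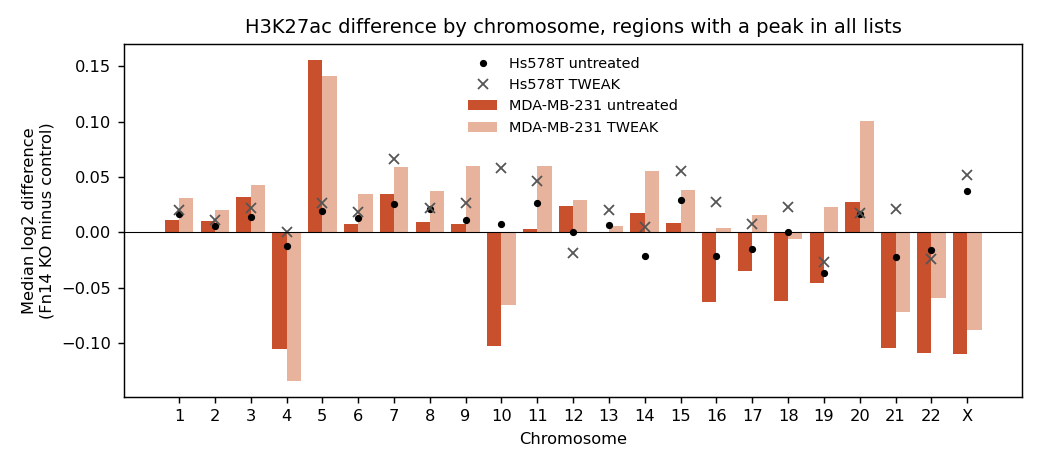
Median log2 difference in fold enrichment, Fn14 KO minus control (y axis), over regions with a peak in all lists of each comparison, by chromosome (x axis). Dark bars are untreated and pale bars TWEAK-treated MDA-MB-231, dots untreated and crosses TWEAK-treated Hs578T. Chromosome 5 was higher (0.16 and 0.14) and chromosome 4 lower (−0.11 and −0.13) in both MDA-MB-231 comparisons.

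The lists that did not define the regions showed whether a difference was found again. In MDA-MB-231 cells given TWEAK, control-only regions had a peak in 39.3% ± 0.53 of cases in control lists and 22.9% ± 1.25 in KO lists (SD, n = 2). KO-only regions had a peak in 68.8% ± 1.27 in KO lists and in 45.4% ± 2.42 in control lists. In both cases the 2 groups of lists did not overlap. The full pattern, a peak in both lists of 1 genotype and none of the other, was met again after TWEAK by 249 control-only (17.0%) and 286 KO-only regions (22.3%), against 2.74% and 4.39% of all regions. Most of all regions had a peak in all 4 lists, so few of them could show it. The opposite pattern was met by 51 control-only (3.48%) and 48 KO-only regions (3.74%). Whether the TWEAK-treated KO cells were the same edited cells as the untreated ones is not given in the sources used here.

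In Hs578T the regions did not follow the genotype in the same way. Untreated Hs578T lists had a peak at 48.1% ± 1.64 (control) and 50.6% ± 0.578 (KO) of control-only regions, and at 46.6% ± 0.991 (control) and 45.4% ± 3.85 (KO) of KO-only regions. With TWEAK the order was the opposite of that in MDA-MB-231, at 29.9% ± 2.41 in control and 50% ± 2.41 in KO lists for control-only regions, and at 55.6% ± 0.220 in control and 45.6% ± 1.54 in KO lists for KO-only regions. Over the 12 lists, with genotype exchanged within line and treatment, the share was 2.10 points lower in control than in KO lists for control-only regions (a difference of −2.10, with p = 0.528 both before and after adjustment, by a two-sided exact permutation test). For KO-only regions it was 4.06 points higher in KO lists (p = 0.370 by the same exact permutation test, 0.528 after adjustment over the 2 tests). These exchanges of labels could not give a p under 0.00926. The graded regions had the same order, as the weaker regions had a median difference of −0.09 in MDA-MB-231 with TWEAK, 0.03 in untreated Hs578T and 0.28 in Hs578T with TWEAK, and the stronger regions 0.12, −0.05 and −0.28.

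**Figure D5:**
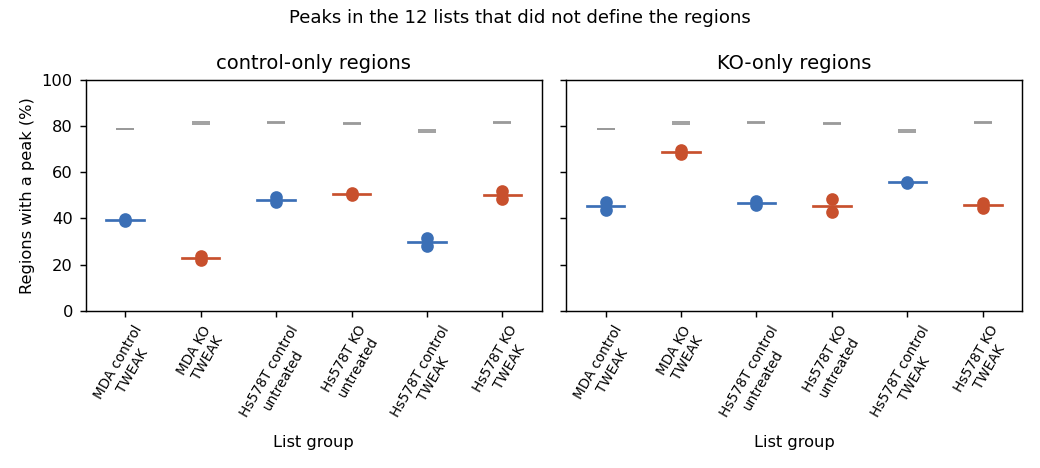
Percent of control-only (left) and KO-only (right) regions with a peak in the 12 lists that did not define them (y axis), by group (x axis). Points are lists (blue control, red KO), coloured lines are group means and grey dashes give the share over all regions (77.8% to 81.4% in the group means). Control-only regions have 39.3% against 22.9% in MDA-MB-231 with TWEAK, and 29.9% against 50% in Hs578T with TWEAK.

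A few regions followed the genotype in all 16 lists of both lines. Among control-only regions these were 5, at NF2 (fold 3.80 to 6.05 over the 8 control lists), ATE1, an arginyltransferase (4.06 to 7.07), the start of FGF13, 205 kb from CNTNAP2 and 781 kb from INHBA. Among KO-only regions they were 6, of which 2 lay at RBFOX1, with folds of 3.86 to 9.34 and 3.75 to 5.91 over the 8 KO lists. The others were near SPANXC (3.4 to 6.16), at the start of FAM83A (3.15 to 3.87), and near SULF2 and in ATP2B2. Thus 0.341% of control-only and 0.467% of KO-only regions had that pattern in the 12 other lists, against 21 (0.0490%) and 35 (0.0817%) of the 42814 regions that were no members. Of these non-members 32411 had a peak in all 4 lists, and 93.0% to 97.8% of those did in the other groups. Few of them could show the pattern, so this contrast decides nothing about genotype. In untreated Hs578T the opposite pattern was met by 5.04% of control-only and 4.51% of KO-only regions, and the same pattern by 3.95% and 3.74%. These genes were named after their values were seen.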

How the data were processed

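H3K27ac ChIP-seq was carried out on chromatin sheared to 200–500 bp, with 2 replicates per group. For the deposited lists the authors used Trimmomatic for trimming and Bowtie2 for alignment (hg38), then MACS2 in broad mode with input subtracted, and dropped blacklisted regions with bedtools. Versions are not given in the sources used here. Each deposited list gives per peak a score, a fold enrichment ratio over input, and −log10 p and −log10 q values. The deposited values carry no reads, so depth is unknown and the DiffBind test of the study was not run. Lists were trimmed to 39544 peaks and merged at 1 bp. Per region and list the highest fold enrichment was taken as log2, quantile normalised and tested with limma 3.58.1 (R 4.3.3, eBayes with trend, Benjamini-Hochberg threshold 0.05) in the 32411 regions with a peak in all 4 lists. The script was tested on simulated data. Annotation was GENCODE 44, with a start-site distance of 2 kb, and promoters were from RefSeq. Named genes were the 12 strongest member regions and the 5 genes with most member regions per direction, the 8 largest limma differences per direction, listed genes and TNFRSF12A. Other genes named were chosen after their values were seen. The members, rules and gene lists were chosen with earlier results of these data known. Alternatives were other trimming, merging, scaling and start-site limits, a replicate block and leaving out each list. The chromosome-centred fit and the counts without 6 chromosomes were added after the data were seen. A few genes and 1 sequence that these rules would name are not reported here.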

Additional observations from a re-analysis of the deposited data

Results flagged for a closer look

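Control-only and KO-only regions moved in opposite directions in the 2 lines after TWEAK, which is why these shares were singled out. For control-only regions the share with a peak was 16.4 points higher in control than in KO lists of TWEAK-treated MDA-MB-231 and −20.2 points, that is lower in control lists, in TWEAK-treated Hs578T. For KO-only regions the share was 23.4 points higher in KO than in control lists of MDA-MB-231 with TWEAK and −10.0 points in Hs578T with TWEAK. In each case both lists of 1 genotype lay above both lists of the other. The difference between the lines was not tested.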

How the results depend on the processing

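The excess over the mixed pairings kept its direction in all settings tried, but its size did not. The ratio of the mean of the control-only and KO-only counts to the mean of the mixed pairings was 4.24, 2.0 with untrimmed lists, 2.22 with peaks of −log10 q of 2 or more (1326 and 884 regions), 7.37 with the highest 20000 peaks (944 control-only, 854 KO-only) and 2.16 in 500-bp bins (8229 and 5513 bins). Leaving out 1 list at a time gave 2225 to 2972 control-only and 1797 to 2917 KO-only regions, with ratios of 1.51 to 2.04. The start-site share of control-only regions was 12.2% with untrimmed lists and 13.0 to 15.5% with a list left out, and that of KO-only regions 7.92 to 9.06%. With limits of 1 and 5 kb the shares were 12.1 and 23.1% for control-only and 5.76 and 14.7% for KO-only regions. Median centring called 4055 weaker regions. Without 1 list there were 767 to 2594 weaker and 1018 to 2614 stronger regions, and control replicates 1 and 2 lowered the counts most. The lists share only a replicate number (correlation of same-numbered deviations −0.080), and with a replicate block limma called 2344 and 2456 regions. In the share tests the block left the differences at −2.10 points (exact permutation p = 0.688) and 4.06 points (p = 0.531). The direction turned in MDA-MB-231 with TWEAK alone for control-only regions (16.4 points, exact permutation p = 0.333) and in Hs578T alone for KO-only regions (−5.60 points, p = 0.167). With a list left out the share differences were −2.67 to −1.53 and 3.15 to 4.97 points (exact permutation p = 0.528 to 0.898 and 0.296 to 0.657). The cause was not tested in any of these. With 2 lists per group and no reads, depth could not be set against any difference.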

Other observations

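A KO-only region nearest to HBB, the β-globin gene, stood out by its unequal lists and was chosen after its values were seen. Its fold enrichment was 2.94 in KO replicate 1 and 24.5 in KO replicate 2 of untreated MDA-MB-231. With TWEAK the KO lists had 2.97 and 3.65. In Hs578T a peak was present in 1 untreated KO list (4.23) and 1 TWEAK-treated KO list (5.14). No control list of either line had a peak there, so that 6 of 8 KO lists and 0 of 8 control lists held it. For the 2 untreated MDA-MB-231 lists of each genotype this was fixed by the definition of a KO-only region.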
